A study of Mus musculus with 6 samples.

Results

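Sorting nexins and VPS (vacuolar protein sorting) proteins move membrane cargo between endosomes, the Golgi, lysosomes and the cell surface. The genes were taken by symbol: Snx followed by a digit, or Vps followed by a digit. This gave 63 of 22180 genes on the array, 30 Snx and 33 Vps genes. Measured values entered the choice only where a gene had several probe sets, since the set with the highest mean signal, taken over all 6 arrays and so blind to treatment, stood for the gene. Earlier results of these arrays were known when the family was taken up, so its counts are a description and support nothing by themselves. Vps25 and Vps51 were on probe sets shared with another gene and are not among the 63. Vps72 carries a VPS symbol but is known as a subunit of chromatin remodelling complexes, unlike the trafficking proteins of the family.

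The samples were macrophages grown from bone marrow of 3 C57BL/KaLwRij mice, a mouse strain used for myeloma transplants, with M-CSF for 7 days. All cultures then shared a dish overnight with the mouse myeloma line 5TGM1-luc, which carries luciferase, and were washed 4 times before RNA extraction. One group of 3 arrays came from cultures given 0.5 nM of an antibody against mouse CSF1R, the receptor for M-CSF, for 3 days, and the other group of 3 arrays from cultures given control IgG, whose dose is not stated separately. The labels tie no replicate to a mouse, and p-values thus reflect only how far these cultures differ, possibly for technical reasons.

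A sorting nexin carries a PX domain, which binds phosphoinositide lipids of endosomes, and many also carry a BAR domain, which bends membrane into tubules. Retromer, made of VPS26, VPS29 and VPS35, selects cargo for return from endosomes, and retriever is a related complex for return to the cell surface. HOPS and CORVET tether endosomes and lysosomes before fusion, GARP tethers carriers at the Golgi, ESCRT complexes sort ubiquitinated receptors into the endosome lumen, and VPS13 proteins carry lipid between membranes. In macrophages, these routes serve the digestion of engulfed material and the turnover of surface receptors.

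Signal is given as log2 of the array intensity. With no measured background, the 95th percentile of 1390 odorant and pheromone receptor genes (4.92) was taken as a guide to it, and all 63 genes had means above it in both groups. The 6 arrays had median log2 signals of 4.88 to 4.95, lower on average with the antibody. No single array stood apart, with correlations of 0.992 to 0.993 within groups and 0.984 to 0.985 between groups. Precision is limited by the number of arrays, which was 3 in each group. Marker lists moved with the treatment: all 8 macrophage markers were higher with the antibody, and their summed intensity was 27036 to 27909 against 15301 to 16010 with IgG. Of 9 plasma cell markers 6 were lower, with sums of 16024 to 17551 with the antibody against 20163 to 20724 with IgG. Of 8 stromal markers 5 were lower and 1 higher, with sums of 1000 to 1061 with the antibody against 1911 to 1966 with IgG. Over all genes, 12.5% were higher and 16.0% lower (limma, adjusted p under 0.05). A sum weighs the brightest marker most. In the plasma cell list this was Ighm, which overlapped between the groups and did not pass (−0.13, limma adjusted p = 0.31). In the stromal list it was Acta2, which fell by 1.20 on the log2 scale. The median change of the 8 stromal markers was −0.38. In each of these lists at most 1 marker was under that guide in both groups (Tnfrsf17 of the plasma cell list, Dcn of the stromal list). All 3 T cell markers and 4 of 5 neutrophil markers were below it in both groups. The part of these shifts in the values that follow was not tested, and in bulk RNA fewer cells of a type and less RNA per cell cannot be told apart.

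With the CSF1R antibody, 27 of the 63 genes were higher and 6 were lower (limma, adjusted p under 0.05 over all genes), while 30 did not pass. That is 42.9% higher and 9.52% lower, where 12.5% of all genes were higher and 16.0% lower (28.5% in either direction). These shares are not matched for signal, since 9070 of the 22180 genes, but none of the 63, were below the background guide in both groups. Among genes above the 50th percentile of mean signal, 41.2% of called genes and 76.3% of called members were higher. The median change of the 63 was 0.15 on the log2 scale, against −0.02 over all genes. The sorting nexins held the larger changes: 17 of 30 were higher and 3 lower, with a median of 0.31, and 10 of 33 Vps genes were higher and 3 lower, with a median of 0.08. Changes of at least 2-fold were seen in 4 genes, all sorting nexins and all higher, where 2.95% of all genes changed by as much. The groups did not overlap for 45 genes, 34 with the antibody on top and 11 with IgG on top; over all genes 39.3% did not overlap. With cyclic loess scaling of the arrays, 40 members were higher and 1 lower, so 97.6% of called members were higher in place of 81.8%. The balance over all genes turned the same way, with 59.2% of called genes higher under cyclic loess in place of 43.8%. With arrays centred on their medians, 29 members were higher and 2 lower, and 52.6% of all called genes were higher. The count of lower genes was 2 without antibody replicate 1 or 2, 5 without antibody replicate 3, and 3, 4 and 1 without IgG replicate 1, 2 and 3 in turn.

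**Figure D1:**
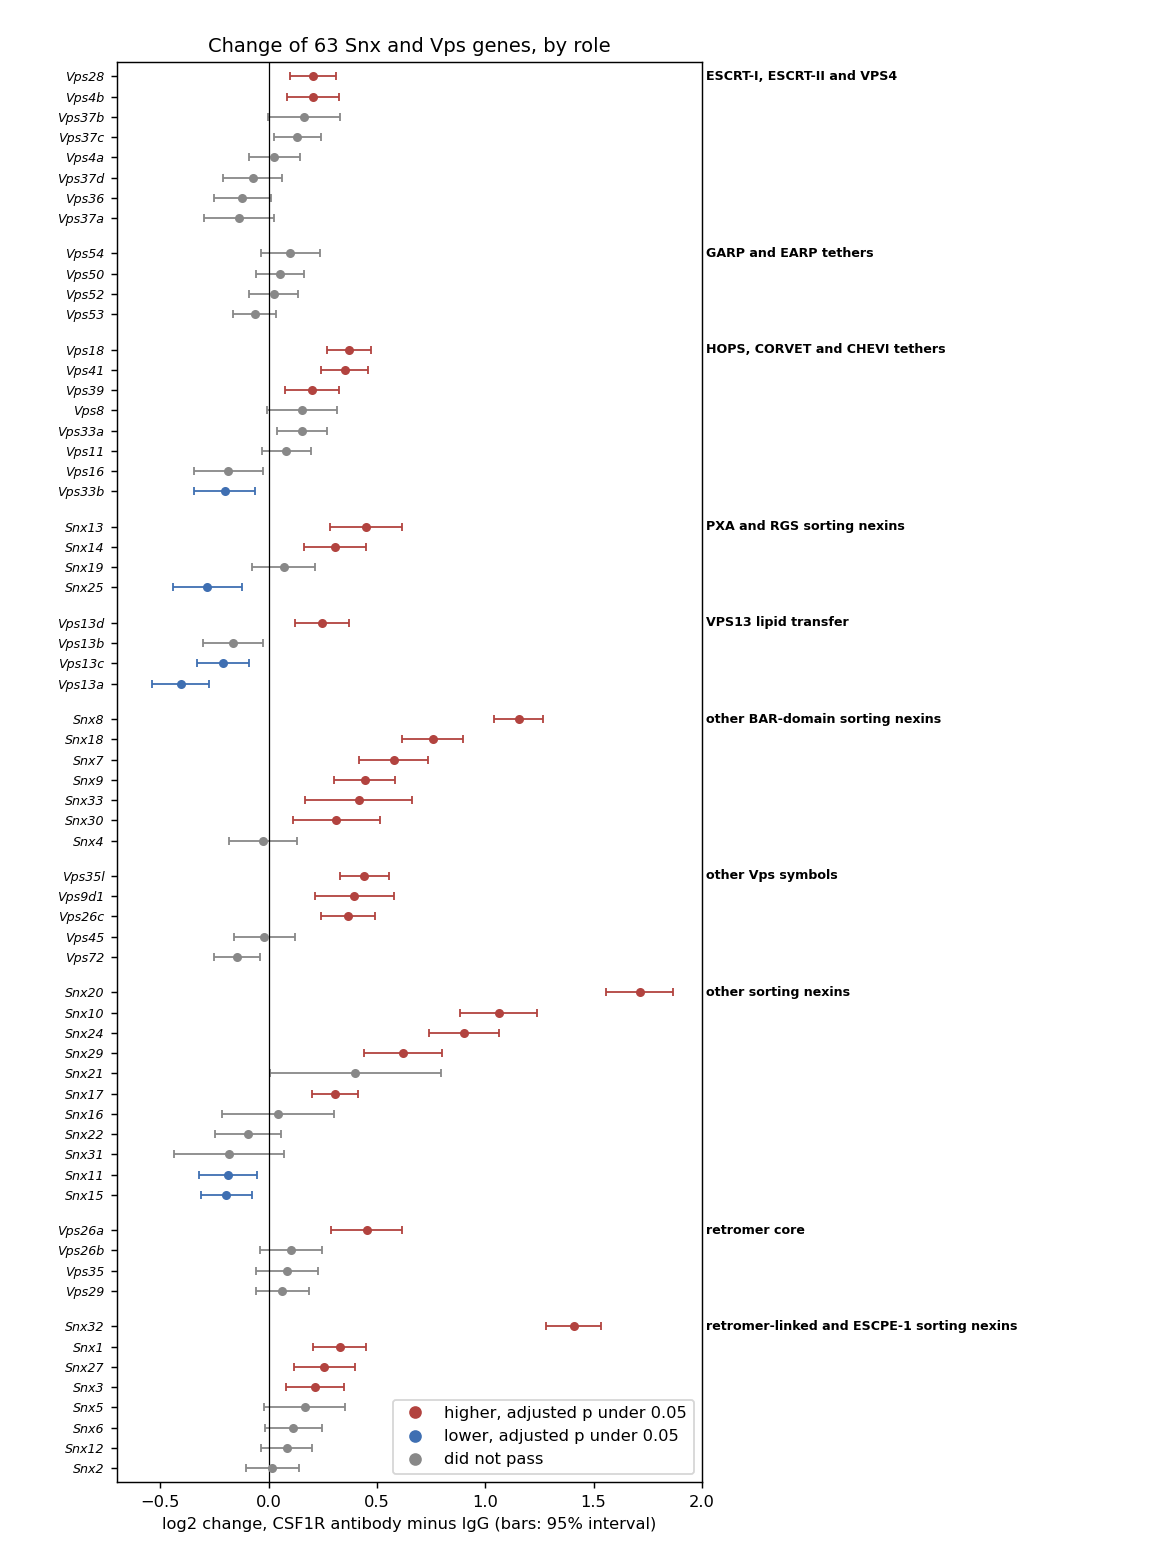
Log2 change (CSF1R antibody minus IgG) of the 63 Snx and Vps genes, grouped by role, with limma's 95% interval; red genes were higher and blue genes lower at adjusted p under 0.05, and grey genes did not pass. Snx20, Snx32, Snx8 and Snx10 lie beyond 1, and no gene lies below −0.41.

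Snx20 changed most. Its product is a leukocyte sorting nexin known to bind the tail of the adhesion ligand PSGL-1. Its log2 signal was 9.07, 9.08 and 9.07 with the antibody, against 7.25, 7.36 and 7.46 with IgG. The antibody values were almost equal, the IgG values were spread, and the nearest values of the groups were 1.60 apart. The rise was 1.71 (SE 0.06; 3.28-fold; limma adjusted p = 1.2e-05). Snx21, the relative that shares its domain layout, read 5.66, 5.53 and 5.36 with the antibody, against 4.85, 5.47 and 5.04 with IgG. These groups overlapped, and the change of 0.40 had a 95% interval of 0.00 to 0.80 (adjusted p = 0.13).

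Snx32, a BAR-domain nexin closely related to Snx5 and Snx6, was at 7.54, 7.60 and 7.61 with the antibody, against 6.14, 6.25 and 6.14 with IgG. The groups were far apart, and the rise was 1.41 (SE 0.05; 2.65-fold; limma adjusted p = 1.2e-05). Snx5 itself read 10.84, 10.87 and 11.09 with the antibody, against 10.73, 10.81 and 10.75 with IgG, and Snx6 read 10.05, 10.04 and 10.18, against 9.97, 9.98 and 9.98. The groups of both were separate but close, and neither passed the test (0.17, adjusted p = 0.18, and 0.11, adjusted p = 0.20). Both are subunits of ESCPE-1, a complex that forms tubules for retrieval from endosomes.

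Snx8, a BAR-domain nexin of endosome-to-Golgi transport, was at 9.06, 9.07 and 9.02 with the antibody, against 7.92, 7.92 and 7.84 with IgG. The rise was 1.15 (SE 0.05; 2.23-fold; limma adjusted p = 1.5e-05), with all antibody arrays more than 1 log2 unit above all IgG arrays. Snx10, an endosomal PX protein whose loss in humans causes osteopetrosis through failing osteoclasts, was at 8.45, 8.45 and 8.61 with the antibody, against 7.33, 7.48 and 7.51 with IgG. It rose by 1.06 (SE 0.07; 2.09-fold; adjusted p = 0.00011). Snx11, the closest relative of Snx10, moved the other way, with 7.30, 7.36 and 7.22 with the antibody against 7.53, 7.46 and 7.46 with IgG. Its fall of 0.19 was narrowly past the test (adjusted p = 0.048). That call was lost without antibody replicate 1 or 3 or without any IgG array, with adjusted p of 0.087 to 0.13. It was also lost with arrays centred on their medians, cyclic loess, robust variances, array weights, the mean of its probe sets and the replicate number as a block.

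Snx24 encodes a small PX-domain protein. It was at 8.55, 8.55 and 8.50 with the antibody, against 7.50, 7.70 and 7.70 with IgG, a rise of 0.90 (SE 0.07; 1.87-fold; limma adjusted p = 0.00015). Snx2, the next protein-coding gene beside it on chromosome 18 in RefSeq (GRCm38.p6), was at 10.44, 10.45 and 10.55 with the antibody, against 10.47, 10.46 and 10.46 with IgG. The neighbours thus gave different readings: the Snx2 groups overlapped, with a change of 0.02 (95% interval −0.10 to 0.14; adjusted p = 0.85). Snx1 and Snx22 are neighbours on chromosome 9. Snx1, a BAR-domain partner of Snx5 and Snx6, rose by 0.33 (SE 0.05; adjusted p = 0.0033), and Snx22 changed by −0.10 (adjusted p = 0.35).

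The nexins with an SH3 domain, which act with dynamin in endocytosis, all rose. Snx18 was at 8.28, 8.41 and 8.36 with the antibody, against 7.57, 7.55 and 7.67 with IgG, a rise of 0.76 (SE 0.06; 1.69-fold; limma adjusted p = 0.00018). Snx9 was at 9.70, 9.69 and 9.83 with the antibody, against 9.24, 9.30 and 9.35 with IgG, a rise of 0.44 (SE 0.06; adjusted p = 0.0017). The groups were separate for both genes. Snx33, the third of them, rose by 0.42 (SE 0.10; adjusted p = 0.023), a call lost when antibody replicate 1 or 2 or IgG replicate 1 or 2 was left out (adjusted p of 0.063 to 0.082).

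Snx7, known to pair with Snx4 in recycling from endosomes, was at 7.26, 7.29 and 7.45 with the antibody, against 6.71, 6.74 and 6.82 with IgG. It rose by 0.58 (SE 0.07; 1.49-fold; limma adjusted p = 0.00097). Its relative Snx30 rose by 0.31 (adjusted p = 0.032). That call was lost without any one of 5 arrays, IgG replicate 3 being the exception (adjusted p of 0.081 to 0.11). Snx4 overlapped between the groups and changed by −0.02 (95% interval −0.18 to 0.13; adjusted p = 0.84). Snx29, which carries RUN and PX domains, was at 7.23, 7.05 and 7.26 with the antibody, against 6.61, 6.60 and 6.47 with IgG, a rise of 0.62 (SE 0.07; adjusted p = 0.0012).

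**Figure D2:**
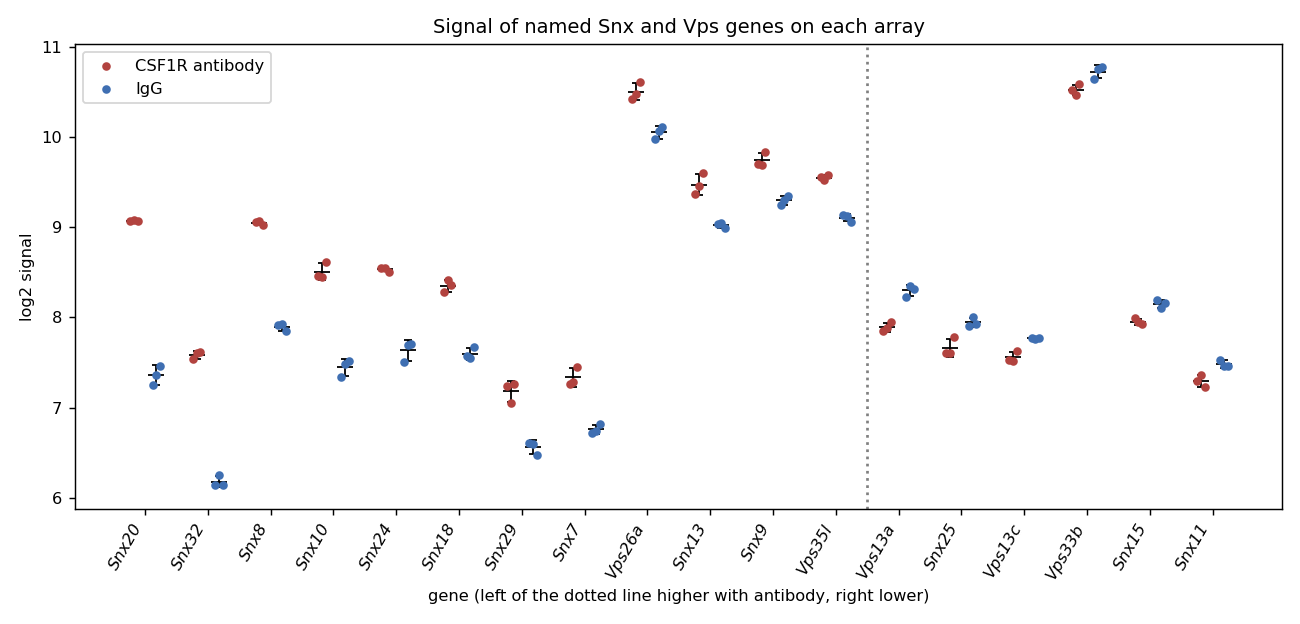
Log2 signal of the 12 members with the largest rises and the 6 that were lower, on each of the 3 CSF1R antibody arrays (red) and 3 IgG arrays (blue), with mean and SD bars. The 18 genes were chosen by the test on these same arrays. Their groups do not overlap, as for 39.3% of all genes, and lie farthest apart for Snx20 (gap of 1.60).

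The start-site regions of genes near both ends of this ranking are shown, from members with a promoter entry in RefSeq (GRCm38.p6, the C57BL/6J reference). Such an entry was found for 42 of the 63 genes. The genes shown are not strictly those that moved the most. Snx24 was left out of this choice, although its rise (0.90) was larger than that of Snx18 (0.76). Each runs from 250 bases before to 50 after the first listed start, 5′ to 3′. Capitals mark matches, on either strand, to GAGGAA (the core bound by the macrophage factor PU.1) or CACGTG (the E-box core).
Snx8, chr5:140389259-140389558, minus strand: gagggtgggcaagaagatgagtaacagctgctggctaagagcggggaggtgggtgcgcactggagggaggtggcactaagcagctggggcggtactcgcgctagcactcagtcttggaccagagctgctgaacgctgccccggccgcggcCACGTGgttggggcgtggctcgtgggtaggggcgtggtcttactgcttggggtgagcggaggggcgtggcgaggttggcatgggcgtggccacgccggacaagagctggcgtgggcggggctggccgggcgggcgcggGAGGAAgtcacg
Snx10, chr6:51523653-51523952, plus strand: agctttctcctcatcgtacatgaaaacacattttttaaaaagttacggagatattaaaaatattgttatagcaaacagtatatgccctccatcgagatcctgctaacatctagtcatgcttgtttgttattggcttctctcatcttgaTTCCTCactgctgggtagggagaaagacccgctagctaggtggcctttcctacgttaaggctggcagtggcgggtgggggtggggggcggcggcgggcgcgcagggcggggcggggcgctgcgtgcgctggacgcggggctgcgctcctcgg
Snx18, chr13:113618515-113618814, minus strand: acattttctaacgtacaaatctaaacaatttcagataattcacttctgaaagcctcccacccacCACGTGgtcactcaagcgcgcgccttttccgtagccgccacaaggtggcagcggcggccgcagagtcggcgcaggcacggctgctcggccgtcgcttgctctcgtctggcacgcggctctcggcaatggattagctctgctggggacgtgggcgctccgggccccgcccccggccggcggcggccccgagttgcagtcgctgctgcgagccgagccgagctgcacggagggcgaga
Vps13a, chr19:16780884-16781183, minus strand: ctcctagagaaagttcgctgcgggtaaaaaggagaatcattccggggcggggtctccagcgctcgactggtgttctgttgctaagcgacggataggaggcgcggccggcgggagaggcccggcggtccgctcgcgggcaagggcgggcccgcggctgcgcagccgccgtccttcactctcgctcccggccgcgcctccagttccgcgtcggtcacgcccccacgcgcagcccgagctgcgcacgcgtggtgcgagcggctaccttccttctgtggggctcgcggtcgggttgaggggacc
Snx25, chr8:46152392-46152691, minus strand: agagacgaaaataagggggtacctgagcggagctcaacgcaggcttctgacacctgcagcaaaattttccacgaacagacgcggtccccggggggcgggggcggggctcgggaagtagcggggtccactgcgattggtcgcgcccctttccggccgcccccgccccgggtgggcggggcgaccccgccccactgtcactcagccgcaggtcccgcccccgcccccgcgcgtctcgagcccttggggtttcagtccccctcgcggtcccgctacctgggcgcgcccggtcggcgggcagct
The first 3 genes were higher with the antibody and the other two were lower. Snx8 held both GAGGAA and CACGTG, Snx10 held GAGGAA, Snx18 held CACGTG, and neither Vps13a nor Snx25 held either motif. GAGGAA was found in 8 of the 18 higher members with an entry (44.4%), 0 of 3 lower ones and 3 of 21 that did not pass (14.3%), against 28.3% of 27025 genes with a promoter entry. CACGTG was found in 3 of 18 higher, 0 of 3 lower and 4 of 21 other members, against 7.24% of all. The motifs did not overlap each other within these 5 windows, and a match describes letters only.

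Among the retromer subunits only Vps26a, its arrestin-like cargo-side subunit, passed the test. It was at 10.42, 10.47 and 10.61 with the antibody, against 9.97, 10.07 and 10.11 with IgG, a rise of 0.45 (SE 0.07; 1.37-fold; limma adjusted p = 0.0029). Vps26b, its paralogue, was at 9.49, 9.51 and 9.59 with the antibody, against 9.35, 9.41 and 9.51 with IgG. These overlapped, with a change of 0.10 (95% interval −0.04 to 0.25; adjusted p = 0.27). The scaffold Vps35 changed by 0.08 (−0.06 to 0.23) and Vps29 by 0.06 (−0.06 to 0.19), and neither passed. All 4 changes were above 0, and with cyclic loess scaling the other three passed too, with adjusted p of 0.022 for Vps35, 0.025 for Vps26b and 0.042 for Vps29.

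Nexins that work with retromer changed by less than Snx32. Snx27, whose PDZ domain binds receptor tails, rose by 0.26 (SE 0.06; limma adjusted p = 0.017), a call lost without IgG replicate 1 (adjusted p = 0.058). Snx3, which recruits retromer for the Wnt carrier Wntless, rose by 0.21 (SE 0.05; adjusted p = 0.027), a call lost when any array other than antibody replicate 1 was left out (adjusted p of 0.058 to 0.082). Snx12, the paralogue of Snx3, changed by 0.08 (−0.04 to 0.20; adjusted p = 0.30).

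Retriever shares VPS29 with retromer. Its scaffold gene Vps35l was at 9.55, 9.52 and 9.57 with the antibody, against 9.13, 9.13 and 9.06 with IgG, a rise of 0.44 (SE 0.05; 1.36-fold; limma adjusted p = 0.00065). Vps26c, its arrestin-like subunit, was at 8.83, 8.82 and 8.86 with the antibody, against 8.40, 8.49 and 8.53 with IgG, and rose by 0.37 (SE 0.05; adjusted p = 0.0024). The groups of both were separate. Snx17, the adaptor that brings integrins and LRP1 to retriever, rose by 0.31 (SE 0.04; adjusted p = 0.0026).

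Nexins with a PXA domain went in both directions. Snx13, first known as a binder of the stimulatory G protein alpha subunit, was at 9.36, 9.46 and 9.60 with the antibody, against 9.03, 9.05 and 8.99 with IgG, a rise of 0.45 (SE 0.07; 1.36-fold; limma adjusted p = 0.0033). Snx14 rose by 0.31 (SE 0.06; adjusted p = 0.0087), and Snx19 overlapped between the groups (0.07; adjusted p = 0.47). Snx25 was at 7.60, 7.60 and 7.78 with the antibody, against 7.90, 8.004 and 7.92 with IgG, a fall of 0.28 (SE 0.07; adjusted p = 0.019). The groups were 0.13 apart, and the call was lost when antibody replicate 1 or 2 or IgG replicate 2 or 3 was left out (adjusted p of 0.052 to 0.067) and with cyclic loess scaling (adjusted p = 0.078). Snx15, which has PX and MIT domains, was at 7.99, 7.95 and 7.92 with the antibody, against 8.19, 8.10 and 8.16 with IgG, a fall of 0.19 (SE 0.05; adjusted p = 0.024). Its call was lost without antibody replicate 2 or 3 or IgG replicate 1 or 3 (adjusted p of 0.057 to 0.072). The call was also lost with arrays centred on their medians, cyclic loess and the replicate number as a block. Snx16, which had the widest antibody spread among the nexins that did not pass (7.88, 8.13 and 8.31, against 8.06, 8.03 and 8.11 with IgG), and Snx31 overlapped between the groups.

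Of 8 HOPS, CORVET and CHEVI genes, 3 were higher and 1 lower, beside 12.5% of all genes higher and 16.0% lower. None overlapped between the groups, where 39.3% of all genes did not, but the gaps of Vps8 and Vps11 were only 0.0008 and 0.008. Vps18, a shared core subunit, was at 7.89, 7.89 and 7.90 with the antibody, against 7.52, 7.55 and 7.51 with IgG, a rise of 0.37 (SE 0.04; limma adjusted p = 0.00094). Vps41 and Vps39, the subunits particular to HOPS, rose by 0.35 (SE 0.05; adjusted p = 0.0015) and 0.20 (SE 0.05; adjusted p = 0.027). The call of Vps39 was lost without any one of 5 arrays, IgG replicate 3 being the exception (adjusted p of 0.051 to 0.073). Vps8, the CORVET subunit, changed by 0.16 (adjusted p = 0.15), and the core subunits Vps33a, Vps11 and Vps16 by 0.15, 0.08 and −0.19, none past the test. Vps33b, of the CHEVI complex, whose loss in humans causes a syndrome of joint, kidney and bile defects, was at 10.52, 10.46 and 10.58 with the antibody, against 10.64, 10.75 and 10.78 with IgG. The call of its fall of 0.20 (SE 0.06; adjusted p = 0.044) was lost without antibody replicate 1 or 2 or IgG replicate 2 or 3 (adjusted p of 0.11 to 0.13). The call was also lost with arrays centred on their medians, cyclic loess and the replicate number as a block.

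Of 8 Vps genes of ESCRT-I, ESCRT-II and the VPS4 ATPases, 2 were higher and 0 lower, with changes from −0.14 to 0.21. Over all genes, 12.5% were higher and 16.0% lower. Vps28, an ESCRT-I subunit, rose by 0.21 (SE 0.04; limma adjusted p = 0.013), and Vps4b, an ATPase that takes ESCRT-III apart, by 0.20 (SE 0.05; adjusted p = 0.024). The call of Vps28 was lost with the replicate number as a block (adjusted p = 0.058). The call of Vps4b was lost with that block and without any one of 5 arrays, IgG replicate 2 being the exception (adjusted p of 0.055 to 0.071 without an array). Vps4a changed by 0.03 (95% interval −0.09 to 0.14; adjusted p = 0.75). None of the 4 GARP and EARP genes Vps50, Vps52, Vps53 and Vps54 passed, with changes from −0.07 to 0.10.

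Of the 4 VPS13 genes, 2 were lower and 1 was higher, beside 16.0% of all genes lower and 12.5% higher. Vps13a, mutated in human chorea-acanthocytosis, was at 7.84, 7.89 and 7.94 with the antibody, against 8.23, 8.35 and 8.31 with IgG. Its fall of 0.41 (SE 0.05; limma adjusted p = 0.0019) was the largest among the members and passed in each of the 15 alternative settings. Vps13c, which links the endoplasmic reticulum to late endosomes, was at 7.53, 7.52 and 7.62 with the antibody, against 7.77, 7.76 and 7.77 with IgG, a fall of 0.21 (SE 0.05; adjusted p = 0.019). That call was lost without antibody replicate 1 or 2 or IgG replicate 1 or 3 (adjusted p of 0.053 to 0.065). It was also lost with arrays centred on their medians, cyclic loess and the replicate number as a block. Vps13b changed by −0.16 (adjusted p = 0.081), and Vps13d, active at mitochondria and peroxisomes, rose by 0.25 (SE 0.05; adjusted p = 0.012). Of the remaining Vps symbols, Vps9d1, with a domain found in activators of Rab5, rose by 0.40 (SE 0.08; adjusted p = 0.0086), and Vps45 and Vps72 did not pass.

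Differences between the changes of related members are a description, since the pairs were chosen with the results known. An exact permutation test of 3 against 3 arrays cannot give p under 0.1, so it could pass no pair. Its smallest adjusted p over the 14 pairs was 0.11. The change of Snx20 exceeded that of Snx21 by 1.31, that of Snx32 exceeded that of Snx6 by 1.29, and that of Snx10 exceeded that of Snx11 by 1.25. Snx21 lay near the background guide (4.92), with an IgG mean of 5.12 and SD of 0.32. Vps13d exceeded Vps13a by 0.65, and Vps26a exceeded Vps26b by 0.35. Snx3 and Snx12 lay closest among 14 such pairs (0.13).

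Vps8, Vps18 and Snx11 each had a further probe set with lower signal, which the choice by mean signal had left out. For Vps18 it read 6.01, 6.18 and 6.07 with the antibody, against 5.93, 6.18 and 5.99 with IgG. It overlapped between the groups (0.06; limma adjusted p = 0.69 over all probe sets), unlike the brighter one (0.37). The further sets of Snx11 (−0.07; adjusted p = 0.76) and Vps8 (0.04; adjusted p = 0.65) overlapped as well, so none of the 3 gave a further reading past the test.

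Genes of the same routes with other names were looked at from 4 lists, in which 59 of 70 listed symbols, some of them older names of the same genes, were measured. Of the 59, 22 were higher (37.3%) and 0 lower, with a median change of 0.10, beside 12.5% of all genes higher and 16.0% lower. These shares, too, are not matched for signal. Of 11 sorting receptors, 7 were higher, with a median of 0.28. Sorl1, a retromer cargo receptor, was at 7.54, 7.54 and 7.62 with the antibody, against 6.14, 6.05 and 6.28 with IgG, a rise of 1.41 (SE 0.07; limma adjusted p = 2.7e-05). Wls, the Wnt carrier that Snx3 and retromer return, was at 8.55, 8.54 and 8.56 with the antibody, against 7.22, 7.40 and 7.37 with IgG, a rise of 1.22 (SE 0.06; adjusted p = 2.7e-05). The groups of both were far apart. The sorting receptor gene Sort1 rose by 0.35 and Igf2r, the large mannose 6-phosphate receptor, by 0.31, while M6pr, the small one, changed by −0.03 (adjusted p = 0.65).

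Of 11 tether and endosomal lipid kinase partners, 5 were higher, with a median of 0.24. These were led by Pikfyve, the kinase that makes the late endosomal lipid PI(3,5)P2, with 0.65 (SE 0.08; limma adjusted p = 0.0014), and Atg14, of the autophagy lipid kinase complex, with 0.49 (SE 0.06). Vipas39, the partner of Vps33b in CHEVI, rose by 0.43 (SE 0.04; adjusted p = 0.00059), the opposite direction to Vps33b, and Vac14, the scaffold of PIKFYVE, by 0.40 (SE 0.05). Of 16 WASH and commander genes, 3 were higher (18.8%, near the 12.5% of all genes), with a median of 0.03. They were Washc4 (0.63, SE 0.07), Washc1 (0.38, SE 0.06) and Ccdc93 (0.23, SE 0.05). None of 9 Commd genes passed, although Vps35l and Vps26c, which join them in the commander assembly, rose.

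Of 21 ESCRT partners, 7 were higher (33.3%, beside 12.5% of all genes), with a median of 0.10. Ist1, an ESCRT-III family protein, was at 10.98, 11.00 and 11.04 with the antibody, against 10.33, 10.37 and 10.40 with IgG, a rise of 0.64 (SE 0.05; limma adjusted p = 0.00014). Chmp3 (0.37), Chmp1b (0.34) and Chmp7 (0.31) followed, all ESCRT-III subunits that build the membrane-cutting filament. All 7 higher genes were among the 11 Chmp and Ist1 genes, and 0 were among the 10 genes of earlier or accessory steps. This split was noticed after the values were seen.

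**Figure D3:**
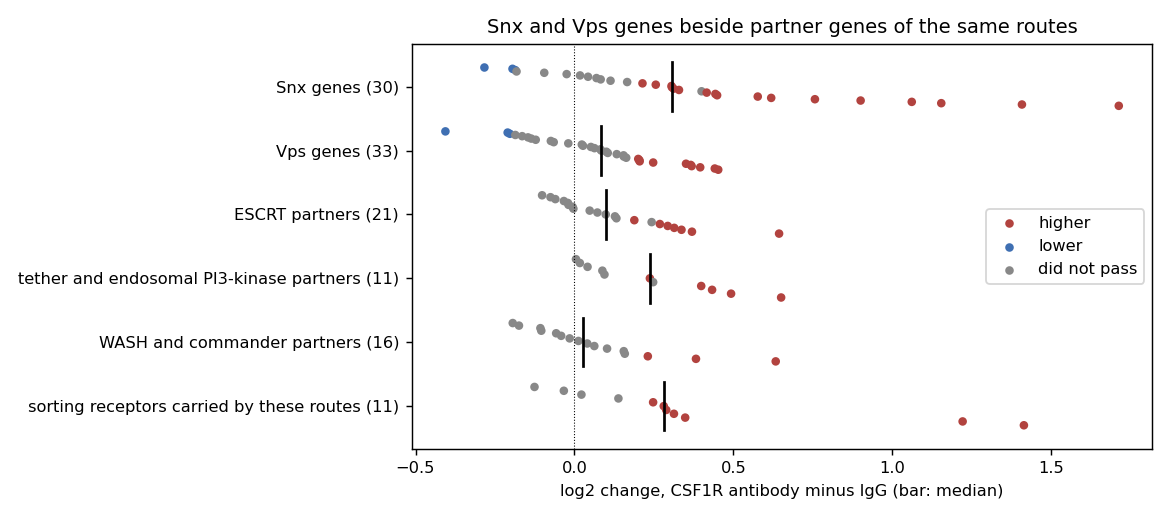
Log2 change (CSF1R antibody minus IgG) of the 30 Snx genes, the 33 Vps genes and 4 lists of partner genes, 1 point per gene; red genes were higher and blue genes lower at adjusted p under 0.05, and black bars are medians. Sorl1 and Wls, at 1.41 and 1.22, stand apart among the sorting receptors, and no partner gene was lower.

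**Figure D4:**
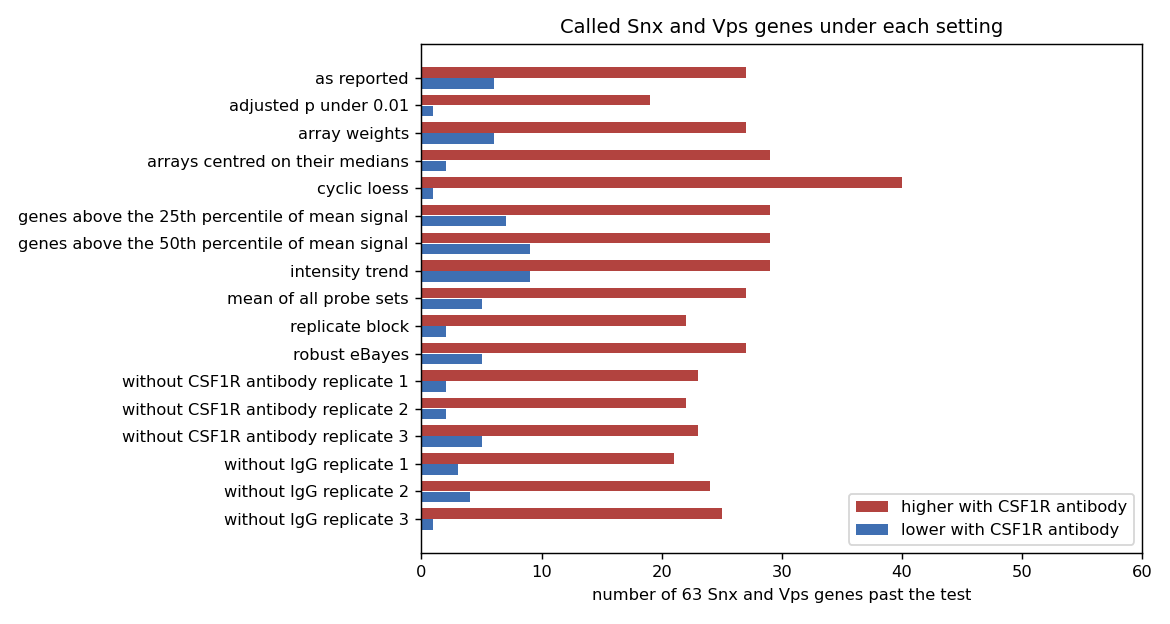
Number of the 63 Snx and Vps genes that were higher (red) or lower (blue) with the CSF1R antibody, for the values as reported (27 and 6) and under each alternative. Higher genes ranged from 19 to 40 and lower genes from 1 to 9.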

How the data were processed

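RNA of 6 macrophage cultures was labelled with biotin and hybridised to GeneChip Mouse Gene 2.0 ST arrays, per the labels. The authors deposited 1 linear intensity per probe set and array. The submitters' processing notes name RMA and limma without saying how either was used. RMA as usually run makes arrays alike in distribution, so a shift of most genes 1 way would be hidden. Equal values on arrays of 1 group occur (7 members with the antibody, 3 with IgG), which makes some SDs very small.

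Values were taken as log2. Of 41345 probe sets, 23521 had 1 gene symbol in the platform annotation, which can be old, 1814 had several and 16010 had none. The comparison used lmFit and eBayes of limma 3.58.1 (R 4.3.3; 4 residual degrees of freedom), and p-values were adjusted over all 22180 genes by Benjamini-Hochberg, with 0.05 as the threshold. The test was checked on simulated data. Levels are means over 3 arrays and SE is limma's.

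The members, lists, pairs and motifs were chosen with earlier results of these data known. Array values are given for up to 12 higher and 12 lower members past the test with the largest change. From each partner list up to 4 genes past the test are named. M6pr, Snx5, Snx6, Snx16, Snx21, Snx2, Vps18, Vps26b and Vps26c are given with array values or named after these were seen. Same-numbered arrays of the 2 groups did not deviate together (correlations of −0.05 to 0.03). Figures used matplotlib 3.10.9 in Python 3.11.15.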

Additional observations from a re-analysis of the deposited data

How the results depend on the processing

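Over 15 alternative settings of the model, scaling, filter, probe sets and arrays, 21 of the 33 called members kept their call, 20 higher and 1 lower (Vps13a), and no called member changed sign. The plot of calls by setting gives all counts. The count of 27 higher members ranged from 21 to 25 when 1 array was left out, and that of 6 lower members from 1 to 5. Lower members numbered 2 with arrays centred on their medians, 1 with cyclic loess, 1 at adjusted p under 0.01 and 2 with the replicate number as a block. With the replicate block, 22 members were higher. Calls lost there were those of Vps28, Vps4b, Vps39, Snx3, Snx33, Vps33b, Vps13c, Snx11 and Snx15. Labels do not say that numbers pair cultures. Deviations of same-numbered arrays from their group means correlated at −0.05 to 0.03. With 3 arrays per group, this cannot show whether they share a mouse or a batch. The median change of the members was 0.25 with cyclic loess and 0.10 to 0.16 with 1 array left out (0.10 without antibody replicate 3), in place of 0.15. With cyclic loess, 35 partner genes were higher in place of 22. Of the 3 members with more than 1 probe set, 2 were called, and 1 when every probe set was tested as its own row. Centring on the medians moves every change up by the same amount by construction (Snx20 from 1.71 to 1.76, Vps13a from −0.41 to −0.36). The cause of the other shifts was not tested. Of the 30 members that did not pass, 17 passed under at least 1 setting. Small changes, under about 0.2, are at the limit of 3 arrays per group. Some larger ones lost their call under a setting too, such as Snx33 (0.42), Snx30 (0.31) and Snx25 (−0.28).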
